A study of Mus musculus with 20 samples.

Results

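The Rab genes of NSC-34 cells were examined, taken as every gene of the RNA-Seq and POL-Seq count table whose name begins with Rab and a digit, pseudogene names left out. There were 63 such genes among 14924. Of these, 52 code for Rab GTPases, 9 code for Rab-named regulators and effectors (Rab3gap1, Rab3gap2, Rab3ip, Rab3il1 and Rab11fip1 to Rab11fip5), and Rab10os and Rab26os are antisense RNAs. The genes were chosen by name and not by a measured value, though with earlier results of these data known.

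NSC-34 is a mouse motor neuron-like hybrid of neuroblastoma and embryonic spinal cord cells. The line carried the tetracycline repressor and a lentiviral, tetracycline-inducible human HuD (ELAVL4) cDNA with a His-HA tag, driven by a CMV promoter with Tet operators. For CRAC the study's text names Trex cells, which carried the repressor without the HuD cDNA, as control. The sample titles of the other assays give CTRL cells only. RNA-Seq of total RNA (TOT, n = 2 HuD and 2 control libraries), POL-Seq of polysomal RNA (POL, n = 2 and 2) and 3′ end sequencing (n = 3 and 3) used HuD cells that had received tetracycline at 2 µg/ml over 48 h. For CRAC, in which HuD is crosslinked to RNA and purified through its tag, the labels give 10 µg/ml tetracycline for 24 h in HuD and control cells (n = 3 and 3, pooled by the authors), while the study's results text gives the other dose and time with doxycycline. The sources used here state no treatment of the control cells for the 3 sequencing assays.

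Rab GTPases are molecular switches of membrane traffic. In the GTP-bound form, loaded by a guanine nucleotide exchange factor (GEF), a Rab sits on its own organelle through a prenyl anchor and recruits effectors such as tethers and motors, and a GTPase activating protein (GAP) then turns it off. Neurons depend on them for axonal transport, endosomal signalling and the release of synaptic vesicles. HuD is a neuronal RNA-binding protein of the ELAV family that binds U-rich stretches, mostly in 3′ UTRs, and acts on mRNA stability and translation.

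Total counts ranged from 21296012 to 36284728 reads per TOT or POL library and from 12986862 to 15751036 per 3′ end library, with 0.410% to 0.490% and 0.188% to 0.211% of reads in Rab genes, respectively. Elavl4 was at 78.3 and 97.4 CPM (TMM-normalized) in TOT of control cells and at 237 and 212 CPM in HuD cells, and in POL at 90.3 and 118 and at 243 and 225. At its 3′ ends it was lower in HuD cells, at 54.6, 31.4 and 52.4 CPM against 78.1, 38.5 and 78.1 in control cells. Those counts are of known ends of the mouse gene, so they do not measure the human cDNA and do not check induction in the 3′ end libraries. Of 11 general neuron markers, 11 were in the count table, as were 8 of 10 motor neuron markers, without Mnx1 and Slc5a7. Of these, 10 general neuron and 7 motor neuron markers were over 1 CPM in TOT of control cells. None of 4 microglia markers was listed, nor were 3 of 4 fibroblast markers, with the other at 23.5 CPM. Also listed were 2 of 4 astrocyte markers (0.574 and 24.6 CPM) and 2 of 4 oligodendrocyte markers (5.81 and 9.20 CPM). The POL library of control replicate 1 decided the number of calls between POL and TOT in control cells, which rose from 26 of 14906 to 2145 of 14924 genes without it. It also moved the calls of HuD against control in POL from 0 to 372 genes and those of TE from 0 to 47.

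Rab levels per exon length (FPKM, from normalized counts and the merged exons of GENCODE vM21) in TOT of control cells reached 104 ± 5.33 (SD, n = 2) for Rab7, which directs late endosomes to lysosomes. Next came Rab5c (100.009 ± 6.20), 1 of the early endosome Rabs, then Rab9 (82.5 ± 4.96), which serves retrieval from late endosomes to the Golgi, and Rab1 (79.7 ± 11.9), which carries ER to Golgi traffic. Rab2a (75.5 ± 6.55), Rab1b (60.5 ± 1.80), Rab6a (56.6 ± 6.14), Rab35 (52.2 ± 0.570), Rab12 (51.2 ± 0.409) and Rab10 (48.7 ± 9.36) completed the 10 highest. The single values of Rab7 and Rab5c overlapped, as did those of Rab9, Rab1 and Rab2a, of Rab1b and Rab6a, of Rab35 with Rab6a and of Rab10 with Rab6a, Rab35 and Rab12, so these neighbours were not separated by their spread. The lowest was Rab26, a secretory vesicle Rab, at 0.187 and 0.150 FPKM. The Rab3 isoforms of synaptic vesicles, chosen after their values were seen, ranged from 16.9 ± 0.983 FPKM for Rab3c to 11.7 ± 0.00374 for Rab3d, 10.3 ± 0.273 for Rab3a and 0.701 ± 0.121 for Rab3b. Fewer cells with a transcript and less of it per cell cannot be told apart in these bulk libraries.

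**Figure D1:**
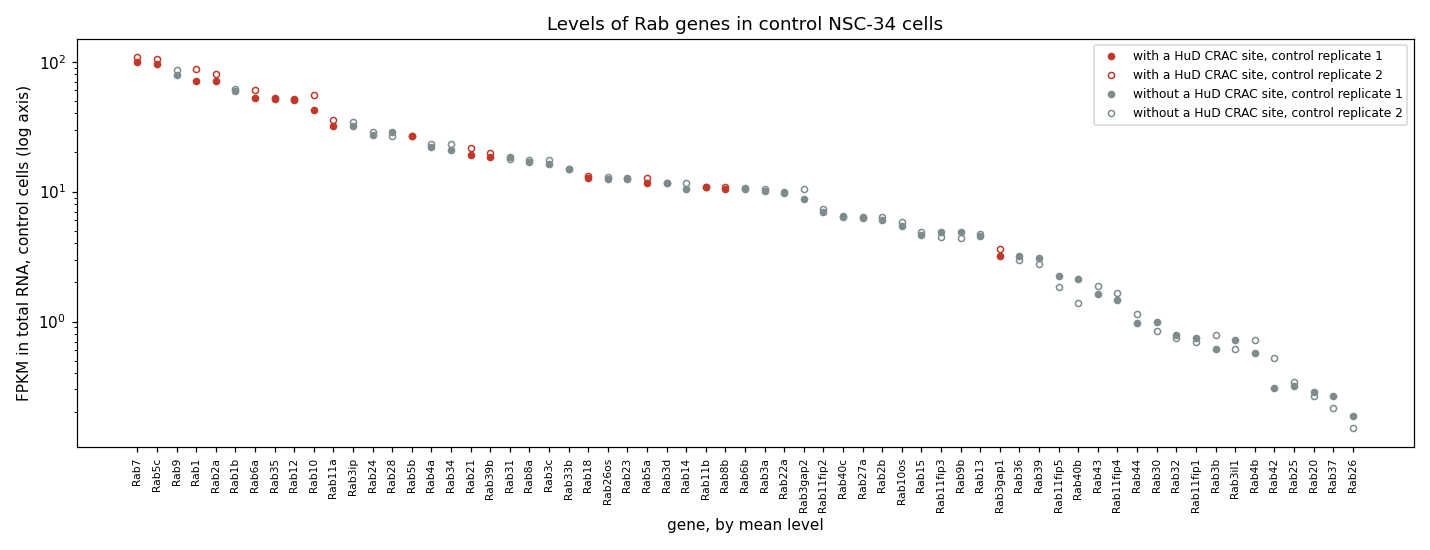
Level of each of the 63 Rab genes in total RNA of control cells, as FPKM on a log axis, with filled and open points for replicates 1 and 2 and red for genes with a HuD CRAC site. The red genes sit in the left part of the order, between 104 and 10.6 FPKM, apart from Rab3gap1 at 3.41.

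HuD CRAC sites were listed on 17 Rab genes. A site is a window of 7 nt (8 nt once) around a crosslink-induced deletion that matched the authors' weight matrix, with at least 6 covering reads and 3 deletions over the pooled libraries. Of the protein coding genes in the count table, 9.9% (1282 of 12953) had a site, against 27.9% (17 of 61) of the protein coding Rab genes. Sites were listed on abundant genes more often: at 50 CPM or more in TOT of control cells the shares were 19.3% (1004 of 5198) over all protein coding genes and 51.6% (16 of 31) over Rab genes, and below it 1 of 30 Rab genes had a site. The replicates were pooled, so these counts have no replicate error, and the part of level in them was not tested.

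By role, sites were listed on 4 of 7 early endosome Rabs (Rab5a, Rab5b, Rab5c, Rab21), 2 of 5 Rabs of late endosomes, lysosomes and autophagosomes (Rab7, Rab12), 3 of 8 recycling Rabs (Rab11a, Rab11b, Rab35), 4 of 12 ER and Golgi Rabs (Rab1, Rab2a, Rab6a, Rab18), and 2 of 12 Rabs of secretory vesicles and exocytosis (Rab8b, Rab10). Rab39b, a neuronal Rab mutated in X-linked intellectual disability, was the only 1 of 7 in the mixed remaining group, and Rab3gap1, the catalytic subunit of a GAP for Rab3 that also acts on Rab18, was 1 of 9 regulators. The Rab3 GTPases had none, although Rab3c was at 196 and 212 CPM in TOT of control cells.

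The 38 unique Rab sites were spread over 7 genes with a single site and 10 with several, led by Rab6a with 6 and Rab21 with 5. The 3′ UTR held 34 of them, from 84 to 2254 nt after the stop codon. Of these, 20 were closer to the stop codon than to the end of the longest annotated UTR. That end need not be the one used: the only listed 3′ ends of Rab21 and Rab18 lay at 909 and 1576 nt, in UTRs annotated at 3688 and 5774 nt. The 20 was not recounted against the listed ends. Control cells had no covering read at 36 of the 38. The authors penalized control reads when they chose sites, so this follows in part from the listing and is not a result about Rab genes. Over the 34 UTR sites the median coverage was 21 reads (highest 126), and over all 38 it was 23.5, beside 28 over all 2868 unique sites. The median share of covering reads with a deletion was 20.0% at Rab sites and 17.9% at all sites.

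The most covered UTR sites of Rab10, Rab2a and Rab21, the genes with the most reads at a UTR site after Rab6a is set apart, are shown with 11 nt to each side, the listed window in capitals, 5′ to 3′, to show the sequence around them. Rab10, a Rab of exocytosis and of the trans-Golgi, had 1 site at chr12:3249557-3249563 (minus strand, GRCm38), 224 nt after the stop codon, with 126 covering reads and 8 deletions. Rab2a, of ER to Golgi traffic, had its main site at chr4:8606808-8606814 (plus strand), with 85 reads and 6 deletions. Rab21, an integrin-carrying endosomal Rab, had 55 reads and 4 deletions at chr10:115290200-115290206 (minus strand). The authors' unadjusted p-values, which combine coverage and deletions, were 0.0268, 0.0522 and 0.13 for these 3 sites. Of the 38 Rab sites, 8 in 5 genes were under 0.05. The sequences are
Rab10: gucugugaguuCAUUUUGagauuuacuug
Rab2a: gucauggugagUAUUUUAaaucaguuugu
Rab21: uacauauuaaaUAUUUUAucugcuuuuac
All 3 windows hold UUU, which the weight matrix favours and the listing therefore selects, so it is not a result about Rab genes. It was preceded by C in 17 of the 38 windows, by A in 12 and by G in 7, and 2 windows lacked it at that position.

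Rab6a, the Golgi Rab of retrograde transport, had the most sites of any Rab gene. Its 6 sites lay on chromosome 7 (plus strand), in order from the stop codon at 958, 1471, 1479, 1585, 1893 and 1903 nt, with 34, 90, 86, 65, 106 and 116 covering reads. Neighbouring windows share reads, so these numbers do not add. They are shown together because Rab6a had the most windows, from the middle to the end of a 1949-nt UTR:
Rab6a site 1: aacaugaguuuCCUUUAAgaaccaucaga
Rab6a site 2: uaggagugcacCCUUUUAaucuuuacuag
Rab6a site 3: cacccuuuuaaUCUUUACuaguuauugug
Rab6a site 4: gcagccugcggAGUUUAUguuguaagcau
Rab6a site 5: caaggauugacUCUUUUGuuuuauuuuga
Rab6a site 6: cucuuuuguuuUAUUUUGacauggcaugu
Site 3 (chr7:100640798-100640804) had 27 deletions among 86 reads, 31.4% with an exact 95% interval of 21.8% to 42.3%. Site 2, which begins 8 nt before it, had 3 among 90, 3.33% with an interval of 0.693% to 9.43%. The listed deletions thus lay mostly on 1 of the 2 adjoining windows, at about equal coverage. Because the windows share reads, the 2 intervals are not independent, and the difference was not tested. Site 3 had the most deletions of the 6, so the pair is a selected one. These intervals cover counting error only.

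Rab5b and Rab8b had the same window, AGUUUGC, and the highest deletion shares of any Rab site with over 10 reads. Rab5b, an endocytic Rab, had 48 deletions among 51 reads at chr10:128678263-128678269 (minus strand), 94.1% (exact 95% interval 83.8% to 98.8%). Rab8b, of vesicle delivery to the plasma membrane, had 20 among 22 at chr9:66846744-66846750 (minus strand), 90.9% (70.8% to 98.9%). The flanks differ between the genes:
Rab5b: gguucacauucAGUUUGCuaugucuuacc
Rab8b: auuuagauuuuAGUUUGCagaaaacauac
Shares above 90% occurred at 130 (4.53%) of all 2868 sites, so such sites are uncommon but not particular to Rab genes. Control cells had no covering read at either position, which the penalty on control reads favours.

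The highest coverage on any Rab gene, 752 reads with 5 deletions (0.665%, exact 95% interval 0.216% to 1.54%), was on Rab3gap1 and outside a UTR. Its 4 sites, with 15, 752, 739 and 555 reads, lay at chr1:127875541-127876112 (plus strand), in an exon of a processed transcript that falls into an intron of the protein coding transcripts. At 2 of the 4, control cells had 5 covering reads, the only Rab sites with any. The site with most reads is shown, since it has no UUU in its window:
Rab3gap1: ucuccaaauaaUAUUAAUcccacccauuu

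**Figure D2:**
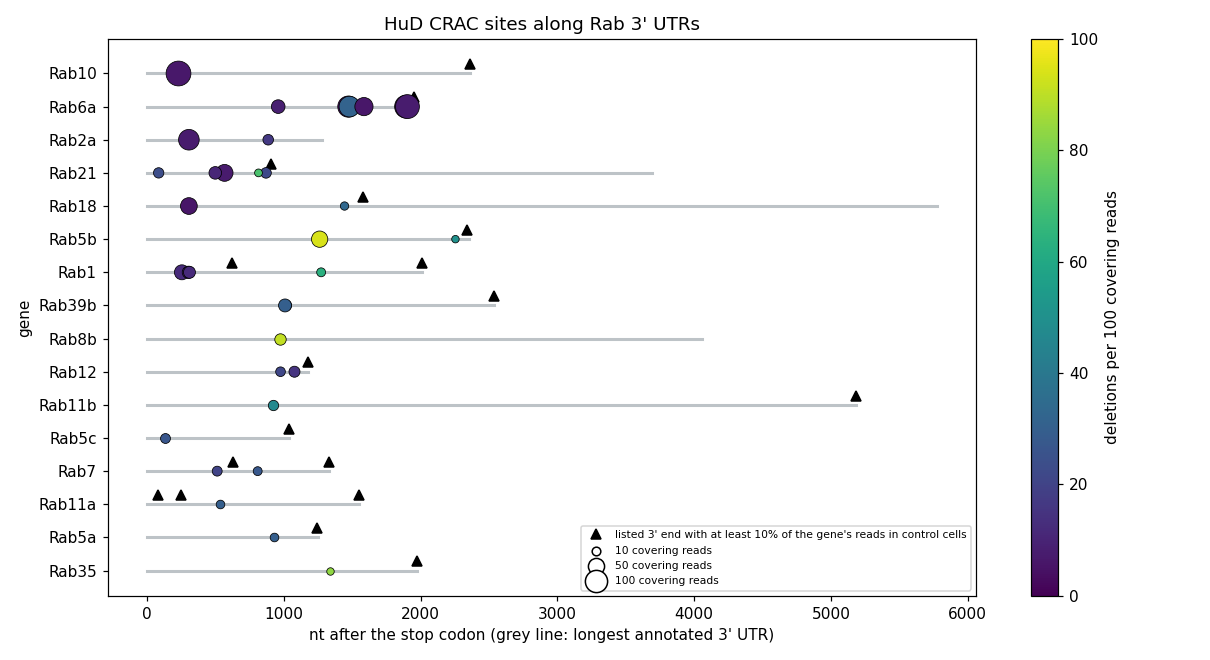
HuD CRAC sites of the 16 Rab genes with 3′ UTR sites, by nt after the stop codon along the longest annotated 3′ UTR (grey line). Circle area rises with covering reads, colour gives deletions per 100 covering reads, and triangles mark listed 3′ ends with at least 10% of the gene's 3′ end reads in control cells. Rab6a shows its sites from 958 to 1903 nt, and Rab5b and Rab8b show the highest deletion shares at over 10 reads, 94.1% and 90.9%.

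Within families that share a Rab number, sites fell unevenly. Rab6a had 6, and Rab6b, its neuron-enriched paralog, had none although its UTR is 4030 nt long, at 10.5 ± 0.0988 FPKM in TOT of control cells against 56.6 for Rab6a. UUU stretches directly after another base numbered 33.4 per kb of UTR in Rab6a and 14.1 in Rab6b. Rab1 had 4 sites and Rab1b had none at a similar level (79.7 and 60.5 FPKM), with 61 and 16 UUU stretches directly after another base in UTRs of 2011 and 1173 nt. Those UTRs are the longest annotated. In control cells 87.1% of Rab1 3′ end reads ended 619 nt after the stop codon, and the only listed Rab1b end was at 1171 nt. Rab2a had 2 and Rab2b none, at 75.5 and 6.24 FPKM, with 32.2 and 26.1 UUU stretches per kb. Rab39b had 2 and Rab39 none, at 19.1 and 2.91 FPKM, and here the stretches per kb ran the other way, 20.1 and 22.7. Rab8b had 1 and Rab8a none, at 10.6 and 17.3 FPKM with UTRs of 4055 and 3767 nt and 30.6 and 17.5 stretches per kb. Both Rab11a and Rab11b had 1 site, and in the Rab5 family Rab5b had 2 and Rab5a and Rab5c 1 each. Rab9, behind Rab7 and Rab5c the highest Rab gene, has a UTR of 455 nt and no site.

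Over the protein coding Rab genes, those with and without a site had 3′ UTRs of similar length, with medians of 1975 nt (n = 17, 1038 to 5774) and 2063 nt (n = 44, 65 to 8596). Other features differed: the medians were 27.9 and 18.1 for UUU stretches per kb of UTR, 33.3% and 27.4% for U content, and 33.7 and 5.50 FPKM for level. Site choice used a U-rich matrix and a minimum of reads, so these are descriptions of what was listed. Over all protein coding genes the median UTR was 1798.5 nt with a site (n = 1266) and 1088 nt without (n = 11519).

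Polysomal against total RNA in control cells asks which transcripts are relatively enriched on polysomes. No Rab gene passed an adjusted p of 0.05 in edgeR's quasi-likelihood test with Benjamini-Hochberg adjustment, where 0.174% of all genes did. At an unadjusted p under 0.05, 9 Rab genes were higher in POL (14.3% of 63 against 4.45% of all genes) and 1 was lower (against 6.25%). The median log2 difference was 0.07 over Rab genes and 0.01 over all genes.

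Rab26os, a short antisense RNA within Rab26, was lowest in POL. It was at 6.24 and 6.49 CPM in TOT of control cells and at 3.40 and 2.07 CPM in POL, with no overlap of the groups. The log2 difference was −1.18 ± 0.21 (SE, edgeR adjusted p = 0.109), DESeq2 called it (adjusted p = 0.00151), and over the alternatives the adjusted p ran from 0.00151 to 0.603. A snoRNA gene lies on the same strand within its exon. The library kit kept the strand, but the strand setting of the counts is not given in the sources used here, so its reads and those of Rab26 cannot be told apart with certainty.

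Rab5a, an early endosome Rab, was at 61.1 and 67.0 CPM in TOT of control cells and at 70.7 and 91.7 in POL, a log2 difference of 0.34 ± 0.12 (edgeR adjusted p = 0.462). Rab18, of lipid droplets and the ER, was at 86.9 and 90.4 in TOT and at 103 and 112 in POL (0.28 ± 0.09, adjusted p = 0.458). Rab6a was at 195 and 227 in TOT and at 227 and 292 in POL (0.30 ± 0.12, adjusted p = 0.462). The groups did not overlap for Rab5a and Rab18 and overlapped narrowly, at 227 CPM, for Rab6a.

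Rab14, of endosome to Golgi recycling, Rab8b, Rab3c, Rab2a, Rab21 and Rab20 were the other 6, with log2 differences from 0.21 to 0.28 apart from Rab20 at 0.92 ± 0.33, whose level was under 1 CPM in every library. Without POL control replicate 1, with the single POL library assumed to vary like the other groups, 7 Rab genes were called (edgeR). Rab5a (0.52, adjusted p = 0.00666), Rab6a (0.47, adjusted p = 0.0173), Rab3c (0.38, adjusted p = 0.0223), Rab18 (0.33, adjusted p = 0.0455) and Rab11fip2 (0.29, adjusted p = 0.0462) were higher, and Rab28 (−0.43, adjusted p = 0.0186) and Rab26os (−1.62, adjusted p = 0.00188) were lower. In that fit 2145 of all 14924 genes were called, and without the other POL control library 0 Rab genes were (7 at an unadjusted p under 0.05).

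Genes with a CRAC site lay toward POL. Their median log2 difference was 0.21 with 15 of 17 above 0, from −0.02 to 0.34. For comparison, the median was 0.07 over the 15 Rab genes at 50 CPM or more without a site (11 above 0), 0.10 over the 1265 other protein coding genes with a site (73.3% above 0), and 0.04 over 4179 other protein coding genes at 50 CPM or more without one. Pair by pair, 17 and 15 of the 17 were above 0 in control replicates 1 and 2, and 16 and 17 in HuD replicates 1 and 2, with medians of 0.21, 0.19, 0.33 and 0.30. The difference between these groups of genes was not tested.

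**Figure D3:**
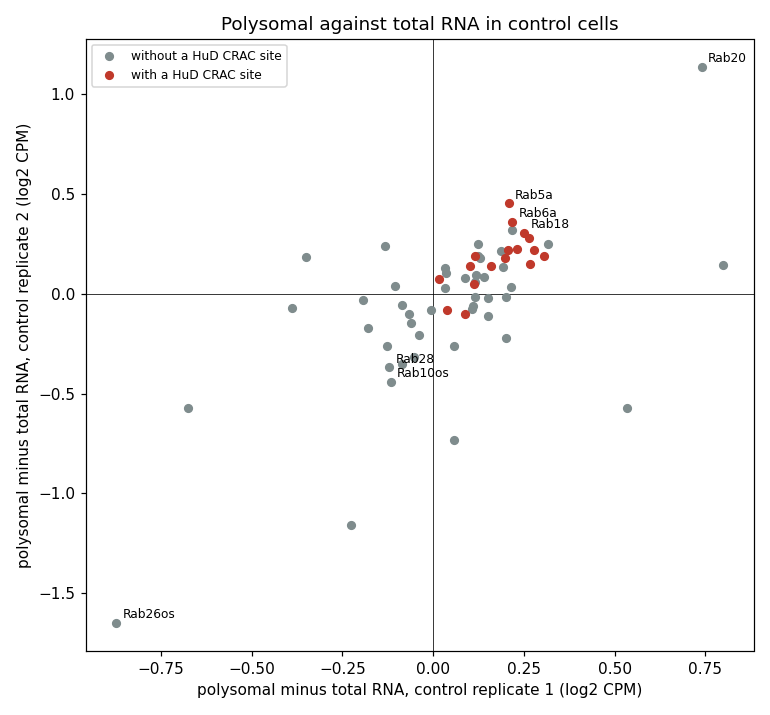
Log2 CPM of polysomal minus total RNA for the 63 Rab genes, control replicate 1 on the x axis and control replicate 2 on the y axis, red for genes with a HuD CRAC site. Red points gather in the upper right quadrant (17 and 15 of 17 above 0), and Rab26os lies lowest on both axes.

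HuD induction in total RNA asks which transcript levels changed. No Rab gene passed an adjusted p of 0.05 (0% of all genes in edgeR, and 1 of 14906 in DESeq2). At an unadjusted p under 0.05, Rab3a and Rab6b were higher (1.78% of all genes were) and Rab1b and Rab27a were lower (0.865%), 4 of 63 in all and 2 with DESeq2. Rab3a, the main Rab of synaptic vesicles, was at 22.4 and 23.3 CPM in control and 27.9 and 26.6 in HuD cells, without overlap (log2 difference 0.25 ± 0.09, edgeR adjusted p = 1.00). Rab6b was at 53.2 and 52.5 CPM in control and 57.8 and 63.8 in HuD cells (0.20 ± 0.08, adjusted p = 1.00). Rab1b was at 135 and 140 CPM in control and 117 in both HuD libraries (−0.23 ± 0.08, adjusted p = 1.00). Rab27a, which docks secretory granules, was at 24.5 and 24.4 CPM in control and 20.3 and 21.8 in HuD cells (−0.22 ± 0.09, adjusted p = 1.00). Rab12 followed at −0.18 ± 0.08. Control and HuD libraries were apart for each of the 4 genes, with differences of 0.20 to 0.25 on the log2 scale in either direction. Here and in the other comparisons genes were picked by p, which favours groups without overlap, so the separation is not further evidence. How many of all genes had such groups was not counted. The test across all genes did not call the 4.

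In polysomal RNA of HuD against control cells, 0 Rab genes were called by edgeR (0% of all genes) and 0 by DESeq2. At an unadjusted p under 0.05, 3 Rab genes were higher (4.76% of 63 against 2.29% of all genes) and 0 lower (against 1.89%). Rab39b was at 72.0 and 76.4 CPM in POL of control cells and at 99.7 and 97.5 in HuD cells, without overlap (0.41 ± 0.09, unadjusted p = 0.00149, edgeR adjusted p = 0.969). Its adjusted p ran from 0.0861 to 1.00 over the alternatives. Rab3a was at 24.2 and 22.3 in control and 28.8 and 29.6 in HuD cells (0.33 ± 0.09, adjusted p = 0.969), and Rab6b at 54.4 and 57.3 and at 64.3 and 69.0 (0.25 ± 0.08, adjusted p = 0.969). These 3 were also higher in both HuD libraries of total RNA, where Rab39b was at 62.7 and 67.5 CPM in control and 68.6 and 79.0 in HuD cells (0.18 ± 0.09, adjusted p = 1.00). Rab30 (0.29 ± 0.15) and Rab21 (0.16 ± 0.09), the next by p, did not reach an unadjusted p of 0.05. Without POL control replicate 1, with the single POL control library assumed to vary like the other groups, 372 of 14924 genes were called but 0 Rab genes, with 8 Rab genes rather than 3 at an unadjusted p under 0.05. In that fit Rab39b was at 0.37 (edgeR adjusted p = 0.0861), Rab3a at 0.39 (0.0833) and Rab6b at 0.22 (0.213). Without POL control replicate 2, 7 Rab genes were at an unadjusted p under 0.05 and 0 were called.

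**Figure D4:**
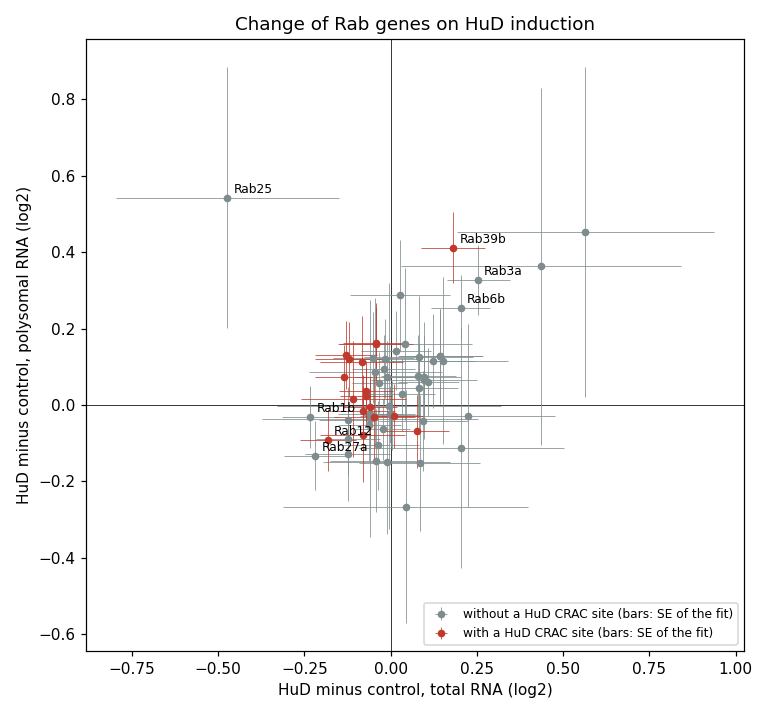
Log2 difference of HuD minus control cells in total RNA (x axis) and polysomal RNA (y axis) for the 63 Rab genes, bars giving the SE of the edgeR fit and red marking genes with a HuD CRAC site. Rab3a, Rab6b and Rab39b lie above 0 on both axes, at 0.20 to 0.25 and 0.18 in total and 0.25 to 0.41 in polysomal RNA. In total RNA 14 of the 17 red points lie left of 0. So did 65.7% of 4179 protein coding genes at 50 CPM or more without a site.

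The change in translation efficiency (TE, the POL to TOT ratio in HuD against that in control cells) had no call among Rab genes, at an adjusted p of 0.05 (0% of all genes) or at an unadjusted p of 0.05, which 0.409% of all genes passed upward and 0.57% downward, and DESeq2 called none. The smallest p was that of Rab25, an epithelial recycling Rab, at 0.334 to 0.572 CPM in control cells, with a log2 difference of 1.02 ± 0.47. Rab18 (0.26 ± 0.13), Rab5c (0.21 ± 0.12), Rab1b (0.20 ± 0.11) and Rab39b (0.23 ± 0.13) followed, each at an adjusted p of 1.00 in edgeR. Without POL control replicate 1, 47 of 14924 genes were called but 0 Rab genes, with 1 at an unadjusted p under 0.05 (Rab1b, 0.26, edgeR adjusted p = 0.335).

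The 17 genes with a CRAC site had a median TE difference of 0.11, with 15 above 0 and the exceptions Rab3gap1 (−0.14) and Rab5b (−0.04). The median was 0.01 over the 15 Rab genes at 50 CPM or more without a site, 0.02 over the other 1265 protein coding genes with a site (57.1% above 0) and −0.002 over the 4179 without. In total RNA 14 of the 17 were below 0 (median −0.07), beside 64.1% of the other genes with a site (median −0.03). Genes at 50 CPM or more without a site were below 0 about as often as the latter, 65.7% of the 4179 (median −0.04) and 10 of the 15 Rab genes. In polysomal RNA 10 of the 17 were above 0 (median 0.02), beside 49.9% of the other genes with a site and 39.5% of the 4179. The TE difference is built from the same libraries as the other 2, so they are not separate observations, and none of the 17 passed a test.

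At the 3′ ends, 46 Rab genes were listed. HuD against control 3′ end counts gave 0 calls among them in edgeR (0.052% of 9621 genes), and at an unadjusted p under 0.05 2 were higher (2.87% of all genes) and 0 lower (3%). The median log2 difference was 0.10 over Rab genes, with 32 of 46 above 0, and 0.00 over all genes. Rab10os was at 19.0, 16.3 and 16.8 CPM in control and 25.4, 26.4 and 23.0 in HuD cells, without overlap (0.52 ± 0.15, edgeR adjusted p = 0.511). With the replicate number as a block, which the correlations of replicates allow here, Rab10os was the only Rab gene called (edgeR adjusted p = 0.0401). Over all genes 217 of 9621 were called, against 5. Past an unadjusted p of 0.05 were 6 of 46 Rab genes rather than 2, and 1798 of 9621 genes rather than 565. Rab10os is an antisense RNA that overlaps exons of Rab10, and Rab10 itself was at 24.5 to 30.0 CPM in control and 25.2 to 27.1 in HuD cells. Rab9b, a paralog of Rab9, was at 10.2, 6.83 and 10.3 CPM in control and 14, 12.3 and 12.5 in HuD cells (0.50 ± 0.20, adjusted p = 0.836), also without overlap.

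Rab39b, next by p, was higher here too, at 7.19, 4.72 and 5.65 CPM in control and 8.39, 6.72 and 8.43 in HuD cells. Of these, 1 HuD library lay within the control range, though each was above the same-numbered control library (0.42 ± 0.22, edgeR adjusted p = 0.882 without pairing). Rab7 (0.20 ± 0.11) and Rab31 (0.20 ± 0.12), endosomal Rabs, came next. The 3′ end libraries were made separately from those of TOT and POL, and in all 3 assays the Rab39b difference was above 0 without passing the test. The other 2 genes at an unadjusted p under 0.05 in POL had opposite signs here. Rab6b was at 44.3, 39.0 and 40.3 CPM in control and 38.3, 31.1 and 46.7 in HuD cells (−0.09 ± 0.17, edgeR adjusted p = 0.995), and Rab3a at 2.65, 3.13 and 2.48 and at 2.67, 4.67 and 2.66 (0.28 ± 0.29, adjusted p = 0.983), both with overlapping groups. By same-numbered pair, Rab6b differed in sign, and Rab3a was higher in HuD cells each time, once by only 2.67 against 2.65 CPM.

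Use of alternative 3′ ends was tested for 13 Rab genes with 2 or more listed positions, and the other 33 had 1. None changed with HuD in edgeR's test of differential usage, at an adjusted p (0.0301% of 3317 genes) or an unadjusted p of 0.05 (0.151%). The smallest unadjusted p was 0.750, for Rab11a, followed by Rab7 (0.875) and Rab10os (0.908). Each position took reads within 10 nt, so positions a few nt apart can hold the same reads. Rab28 had 50.3% and 49.7% of control reads at adjoining positions, and Rab3il1 50.0% and 50.0%. For such genes the test sets a count against its near copy and could not show a change. After positions within 20 nt were merged, 6 genes kept 2 or more. Only for these 6 were separate ends compared, and none was called.

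Rab1, Rab7 and Rab11a had a CRAC site between alternative 3′ ends. Rab1 ended 619 nt after the stop codon in 84.8%, 88.3% and 88.1% of control 3′ end reads and in 85.4%, 84.8% and 91.3% in HuD cells. Its 3 sites at 254, 301 and 309 nt lie before that end, and the site at 1272 nt is held by 11.4% ± 1.95 (SD, n = 3) of control reads, those ending near 2011 nt. Rab7 ended 630 nt after the stop in 29.1% ± 2.03 of control and 30.3% ± 2.74 of HuD reads, which keep the site at 512 nt and lose that at 808 nt. Rab11a, the main recycling endosome Rab, ended 79, 244 and 1550 nt after the stop in 14.5% ± 0.541, 43.6% ± 1.73 and 41.9% ± 1.71 of control reads, and its site at 531 nt lies in the last form alone. That form made up 38.4%, 41.6% and 34.6% of reads in HuD cells, against 43.8%, 40.7% and 41.1% in control cells, and the groups overlapped.

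**Figure D5:**
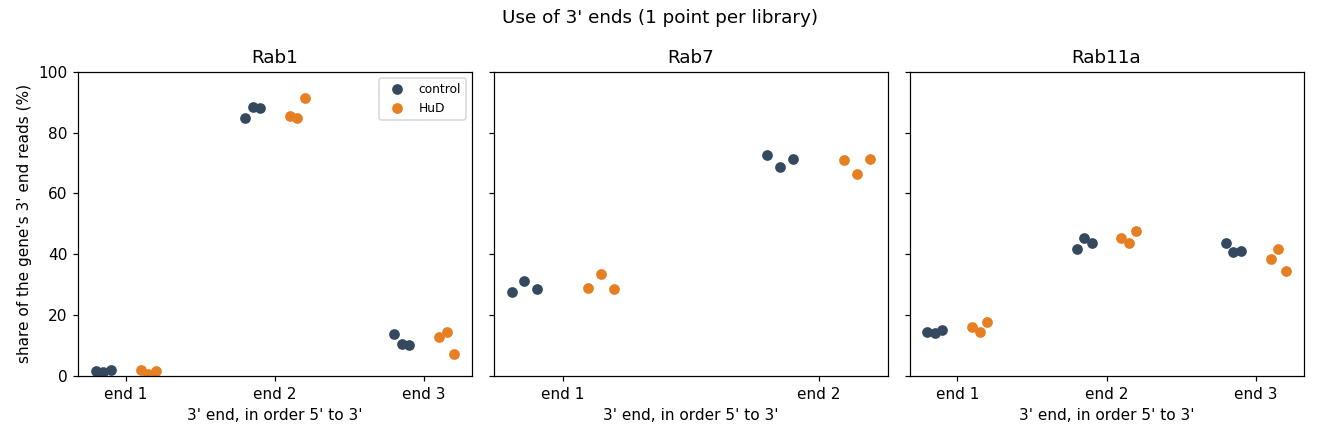
Share of each gene's 3′ end reads, in percent, at the ends of Rab1, Rab7 and Rab11a in order from 5′ to 3′ (positions within 20 nt merged), 1 point per library, dark for control and orange for HuD cells. Rab1 used its end 2 in 84.8% to 91.3% of reads.

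Genes that load, unload or read Rabs were taken from fixed lists, which were set with earlier results of these data known. In TOT, 0 of 31 GEFs, 30 GAPs, 32 effectors and 8 genes of prenylation and GDP dissociation were called by edgeR in HuD against control cells (0% of all genes). At an unadjusted p under 0.05, 1 GEF was higher and 1 lower (3.23% each), and 0 in the other lists. Over all genes 1.78% were higher and 0.865% lower. In POL, the counts at an unadjusted p under 0.05 were 1 higher and 1 lower among GEFs, 1 and 2 among effectors, 1 and 0 in prenylation and GDP dissociation and 0 among GAPs. Over all genes 2.29% were higher and 1.89% lower. In lists of 8 to 32 genes, counts this small are not read as a result. CRAC sites were listed on 2 GEFs (Dennd5a, Ric1), 1 GAP (Tbc1d15), 4 effectors (Ehbp1, Eea1, Myo5a, Bicd1) and Gdi2, which extracts GDP-bound Rabs from membranes. The shares with a site, 6.45%, 3.33%, 12.5% and 12.5%, compare with 27.9% of the Rab genes and 9.9% of all protein coding genes. Gdi2 had 4 sites with up to 54 covering reads, the most in these lists.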

How the data were processed

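RNA-Seq, POL-Seq, 3′ end sequencing and CRAC of NSC-34 cells with and without induced HuD were analysed. The members, gene lists and tests were chosen with earlier results of these data known. Gene-level files were deposited as raw counts of total and polysomal reads (STAR 2.5.3a, GRCm38.p4, Gencode M6). For the 3′ ends (QuantSeq REV), the authors deposited counts of reads starting within 10 nt of known polyadenylation sites, and equal positions of a gene were counted once. Positions a few nt apart were kept and summed per gene, so a read near several of them can count more than once. CRAC reads were stripped of PCR duplicates and aligned with TopHat2 2.0.14 by the authors, who pooled replicates, penalized control reads, and deposited the coverage of each site as a signal in reads, the count of deletions, an unadjusted p-value combining both, and a score against their weight matrix. Lines with 1 position were reduced to a unique site. The listed windows held the listed sequence only after a shift of 1 nt on the plus and 2 nt on the minus strand, found by matching 20 and 18 Rab sites to GENCODE vM21 transcripts of the same build. Positions are printed with that shift.

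Gene tests used edgeR 4.0.16 under R 4.3.3 (TMM, filterByExpr, quasi-likelihood test, Benjamini-Hochberg adjustment at 0.05 over all genes), TE as the interaction in a fit to all 8 libraries, and end usage with diffSpliceDGE and Simes' method. Scripts were tested on simulated data. DESeq2 1.42.0, RLE normalization, no filter, a replicate block and libraries left out were alternatives. For the 3′ ends, deviations from the group means of same-numbered libraries correlated at r = 0.415, 0.679 and 0.535 over genes. The number was therefore taken to pair them in the replicate block, while the main fit stayed unpaired. The labels do not say whether replicates are separate cultures, so p-values measure the spread between libraries, which may be technical. FPKM divides TMM-normalized CPM by the merged exon length. UTRs are the longest annotated. Intervals are exact Clopper-Pearson (SciPy 1.17.1).

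Named were all genes with a CRAC site and their numbered paralogs, up to 8 called each way between POL and TOT, all called or the 5 smallest p in each HuD comparison, the 10 highest and the lowest by FPKM, and the 3 smallest p for end usage. Genes past an unadjusted p between POL and TOT, Rab28, Rab11fip2, Rab3b and Rab3d were chosen after their values were seen.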

Additional observations from a re-analysis of the deposited data

How the results depend on the processing

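For the counts of Rab genes called or with a CRAC site, 67 alternative values stayed within 1.5 times the reported count and 5 did not. Between POL and TOT in control cells, DESeq2 called 1 Rab gene (Rab26os, adjusted p = 0.00151), and leaving out 1 library gave 0 to 7 calls, 7 without POL control replicate 1 and 0 otherwise. With the replicate block, 1 Rab gene was called in the 3′ end counts (Rab10os). The number with a CRAC site was 11 when at least 20 covering reads were required and 5 at a combined p-value under 0.05. It stayed within 1.5 times of 17 with 3′ UTR sites alone or without control reads. For TOT and POL, the deviations of same-numbered libraries correlated between every pair of groups (r = 0.279 to 0.566 over genes), which hints at pairing, but with 2 numbers and no label that ties them the pairing was not established. A block on them left 0 Rab genes called in each comparison and gave 6, 6, 1 and 19 at an unadjusted p under 0.05 for HuD in TOT, HuD in POL, TE and POL against TOT, instead of 4, 3, 0 and 10. Over all 14906 genes the same block gave 918, 1386, 362 and 3071, instead of 394, 622, 146 and 1594. For the Rab genes, the numbers over all alternatives ran from 0 to 6, 3 to 8, 0 to 3 and 1 to 20, and from 1 to 7 for the 3′ ends. The median Rab difference from all genes in TOT, −0.01, became 0.02 without TOT control replicate 2 and 0.001 without TOT HuD replicate 1. In the merged 3′ ends with the replicate block, added after seeing the data, 0 of 6 genes were called. No named gene changed its sign under any alternative among the 5 with the smallest p in each comparison. Groups of 2 libraries limit the precision, as the SE of 0.47 for the TE difference of Rab25, at under 1 CPM, shows. Sites with under 6 covering reads are not listed, and how far this lowers the number of sites on genes at low levels was not tested.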
